A study of Rattus norvegicus with 33 samples.

Results

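Collagen chain genes were followed through rat soleus muscle after spinal cord injury, electrical stimulation and gastrocnemius ablation. Members were taken by name: every row of the expression table with a single gene symbol made of Col, a type number, the letter a and a chain number, with the brightest row kept for each gene. This gave 25 collagen genes among 14506 genes. They were 10 fibrillar chains (Col1a1, Col1a2, Col2a1, Col3a1, Col5a1, Col5a2, Col5a3, Col11a1, Col11a2 and Col27a1), 3 basement membrane chains (Col4a1, Col4a3 and Col4a4) and 12 other chains (Col6a4, Col7a1, Col8a1, Col9a1, Col9a2, Col10a1, Col12a1, Col13a1, Col14a1, Col16a1, Col17a1 and Col23a1). Only Col6a4 had more than 1 row, and it had 3. All 25 passed the filter on low values, a mean of 3 over the arrays of a fit, which removes few genes. The dimmest members were Col10a1 at a mean of 6.16, Col9a1 at 6.29, Col4a4 at 6.31, Col13a1 at 6.37 and Col17a1 at 6.42. Whether their probes measured transcript was not tested, and their differences near 0 may lie under what the array could show. Col4a2, Col6a1, Col6a2, Col6a3, Col15a1, Col18a1, Col22a1 and Col25a1 were not analysed here. The same holds for Col4a5, Col4a6, Col6a5, Col6a6, Col8a2, Col9a3, Col19a1, Col20a1, Col24a1, Col26a1 and Col28a1. Each class was therefore covered in part.

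Collagens are trimers of alpha chains that fold in the endoplasmic reticulum, where prolines and lysines are hydroxylated, and are then secreted. Fibrillar collagens are trimmed outside the cell and pack into crosslinked fibrils, with types I and III forming the bulk of the connective tissue around muscle fibers and types V and XI controlling the start and width of fibrils. Type IV chains form a sheet-like network in the basement membrane of each muscle fiber and capillary, and types XII, XIV and XVI sit on or beside fibrils without forming fibrils of their own. In muscle, resident fibroblasts make most of the fibrillar collagen.

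All animals were female Wistar rats, and each of 11 groups held 3 arrays of soleus RNA, 1 array per animal. In the first experiment SCI animals had a transection between thoracic vertebrae 9 and 10 at 9 weeks of age and a gastrocnemius tenotomy with implantation surgery, but no stimulator, 14 weeks later, and their soleus was taken 21 days after that surgery. SCI-ES animals had the same operations with a stimulator and received electrical stimulation for 1 hour a day, started 16 weeks after transection and given for 1, 3 or 7 days. Sham-SCI animals had the spinal operation without transection. The labels list a gastrocnemius ablation for SCI and SCI-ES and none for Sham-SCI, and the sources used here do not state whether Sham-SCI animals had the implantation surgery, so SCI and Sham-SCI differ in more than the transection. In the second experiment GA animals of 22 to 23 weeks of age had the distal tendon of the left gastrocnemius cut and were studied 1, 3 or 7 days later, and Sham-GA animals had the same operation without the cut, so every animal of the second experiment had surgery on the leg and none served as an unoperated reference.

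The promoters of 4 fibrillar chains and of the 3 basement membrane chains are shown to let a reader set chains that moved beside those that did not. Col1a1, Col2a1, Col3a1, Col12a1 and Col14a1 are named only. Each is the RefSeq sequence of build GRCr8 over a window of 300 bases around the gene's start, most of it upstream, printed 5′ to 3′ on the gene's own strand. Capitals mark the CCAAT box, the GC box (letters GGGCGG) and the TATA box (letters TATAAA), searched on both strands. Col1a2, Col5a1, Col5a2 and Col11a1 are fibrillar chains that were higher on the latest day than on the earliest in Sham-GA and in GA. Col4a1 is the basement membrane chain that was higher between these days, and Col4a3 and Col4a4 are those that did not pass the test. The days were compared between different animals without an unoperated reference, so an effect of the leg surgery itself was not tested.
Col1a2 (chr4:33518307-33518606, plus strand): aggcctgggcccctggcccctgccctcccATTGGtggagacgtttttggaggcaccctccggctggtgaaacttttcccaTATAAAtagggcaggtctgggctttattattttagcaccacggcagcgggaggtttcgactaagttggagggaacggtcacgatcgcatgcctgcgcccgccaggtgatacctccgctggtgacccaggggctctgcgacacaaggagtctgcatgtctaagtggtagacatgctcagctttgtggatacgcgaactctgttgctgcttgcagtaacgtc
Col5a1 (chr3:31606630-31606929, plus strand): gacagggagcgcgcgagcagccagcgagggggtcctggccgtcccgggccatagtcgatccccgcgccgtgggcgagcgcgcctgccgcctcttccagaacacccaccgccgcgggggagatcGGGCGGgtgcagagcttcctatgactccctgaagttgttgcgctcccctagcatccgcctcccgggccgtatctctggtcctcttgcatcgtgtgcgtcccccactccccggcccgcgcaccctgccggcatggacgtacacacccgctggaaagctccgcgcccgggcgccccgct
Col5a2 (chr9:55090102-55090401, minus strand): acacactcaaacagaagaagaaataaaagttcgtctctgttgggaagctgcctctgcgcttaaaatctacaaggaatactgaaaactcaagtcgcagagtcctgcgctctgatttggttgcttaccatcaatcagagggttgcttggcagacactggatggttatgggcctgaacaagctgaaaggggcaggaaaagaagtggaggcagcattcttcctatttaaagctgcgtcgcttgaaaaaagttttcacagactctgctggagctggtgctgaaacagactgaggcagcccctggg
Col11a1 (chr2:204508886-204509185, plus strand): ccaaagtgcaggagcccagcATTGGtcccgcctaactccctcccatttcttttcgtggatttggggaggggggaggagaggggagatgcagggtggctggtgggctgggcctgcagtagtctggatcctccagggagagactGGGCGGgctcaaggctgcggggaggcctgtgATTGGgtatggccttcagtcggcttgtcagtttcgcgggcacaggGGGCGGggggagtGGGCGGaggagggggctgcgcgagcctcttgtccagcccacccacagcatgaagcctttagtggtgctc
Col4a1 (chr16:84885347-84885646, plus strand): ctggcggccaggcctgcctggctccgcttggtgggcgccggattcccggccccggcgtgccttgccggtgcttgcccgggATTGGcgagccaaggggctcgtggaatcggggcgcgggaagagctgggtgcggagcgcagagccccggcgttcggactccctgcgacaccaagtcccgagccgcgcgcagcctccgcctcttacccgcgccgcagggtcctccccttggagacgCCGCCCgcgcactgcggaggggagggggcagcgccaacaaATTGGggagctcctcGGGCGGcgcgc
Col4a3 (chr9:91323740-91324039, plus strand): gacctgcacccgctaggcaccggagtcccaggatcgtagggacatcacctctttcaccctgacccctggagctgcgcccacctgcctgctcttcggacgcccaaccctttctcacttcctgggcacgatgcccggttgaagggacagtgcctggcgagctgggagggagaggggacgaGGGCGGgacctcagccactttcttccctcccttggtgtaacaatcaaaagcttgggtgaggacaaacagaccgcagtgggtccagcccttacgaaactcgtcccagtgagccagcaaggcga
Col4a4 (chr9:91323528-91323827, minus strand): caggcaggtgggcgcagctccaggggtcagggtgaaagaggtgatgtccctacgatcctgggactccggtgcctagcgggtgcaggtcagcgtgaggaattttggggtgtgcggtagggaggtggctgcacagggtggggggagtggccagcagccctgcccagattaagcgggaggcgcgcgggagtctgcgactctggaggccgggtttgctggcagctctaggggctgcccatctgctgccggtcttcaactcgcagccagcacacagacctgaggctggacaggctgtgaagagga
Sequences were found for 20 of the 25 members. Of these 20 windows, 7 held a CCAAT box, 11 a GC box and 4 a TATA box, against 37.5%, 33.1% and 14.2% of all 33469 promoters of the same length. Among the 7 printed, Col5a2 and Col4a4 held none of the 3 motifs, so chains that rose and chains that did not were found on both sides. The windows of Col4a3 and Col4a4, which lie head to head on chromosome 9, share 88 bases, and that of Col4a1 shares 176 bases with the window of Col4a2. Col3a1 and Col5a2 are also neighbors on chromosome 9. A motif match is a description of the letters and no evidence that a factor binds.

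Values are log2 expression values, so a difference of 1 is a 2-fold difference, and levels of different genes are not set against each other because their probes differ. A collagen was called when its adjusted p from limma was under 0.05 and its fold was at least 1.5, with adjustment over all genes tested. The muscle fiber markers averaged 13.1 over all arrays, with the dimmest of the 8 measured, Tnnt1, at 12.5. A pair of arrays stood apart over the whole genome: Sham-GA 3 days replicate 2 had 655 genes more than 2-fold away from both other arrays of its group, and Sham-GA 1 day replicate 1 had 618, against 279 in the next array. Neither the labels nor the table gave batches of arrays.

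The largest collagen differences in these data lay between days of the second experiment, in animals with and without the gastrocnemius cut. Between 1 and 7 days after the sham operation 12 of 25 collagens rose and none fell, while 3.46% of all genes were called higher. The share of all genes called lower is not given here, for these days in Sham-GA or in GA. Statements below on genes that fell or did not fall between days therefore have no background. The 12 were 8 of the 10 fibrillar chains, 1 of 3 basement membrane chains (Col4a1) and 3 of 12 others (Col12a1, Col14a1 and Col16a1). For 17 of 25 collagens all 3 arrays at 7 days lay above all 3 at 1 day, as did 10.5% of all genes. These comparisons between days were added after the values had been seen.

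Col1a1 encodes the chain present in 2 copies in type I collagen, the main fibril of tendon and muscle connective tissue. Its level in Sham-GA arrays was 10.08, 9.96 and 10.32 at 1 day, 10.22, 12.45 and 10.68 at 3 days, and 12.82, 12.82 and 13.39 at 7 days. The arrays at 1 and 7 days were far apart, and at 3 days 1 array was near the 7 day level and the other pair near the 1 day level. The rise from 1 to 7 days was 2.89 (SE 0.45, adjusted p = 0.0015), or 7.40-fold. Col1a2, the partner chain of type I, rose by 2.59 (SE 0.43, adjusted p = 0.0023), or 6.02-fold. Its 3 arrays were at 10.03, 9.92 and 10.34 at 1 day and at 12.36, 12.54 and 13.16 at 7 days, again without overlap.

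Col3a1, the single chain of type III collagen, a thin fibril of young and repairing tissue, rose by 2.82 (SE 0.43, adjusted p = 0.0015). Its levels were 9.37, 8.87 and 9.65 at 1 day and 11.91, 11.94 and 12.52 at 7 days. The lowest array at 7 days therefore exceeded the highest at 1 day by more than the whole spread within either group. The chains that nucleate fibrils rose less in log2 terms. Col5a2 rose by 2.00 (SE 0.39, adjusted p = 0.0055), Col5a1 by 1.79 (SE 0.33, adjusted p = 0.0039), Col11a1 by 1.29 (SE 0.27, adjusted p = 0.0081) and Col5a3 2.30-fold (adjusted p = 0.0068). Fitted on the arrays of these days alone, Col11a1 was not called (adjusted p = 0.069). Col2a1, the chain of cartilage collagen, rose by 0.81 (SE 0.11, adjusted p = 0.00059) from 6.90, 7.00 and 7.16 to 7.81, 7.90 and 7.76, so its small difference went with a narrow spread. Col27a1 at 0.41 (adjusted p = 0.064) and Col11a2 at 0.17 (adjusted p = 0.46) were the 2 fibrillar chains that did not pass the test.

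Among the chains outside the fibrils, Col14a1, which binds the surface of fibrils, rose by 2.29 (SE 0.36, adjusted p = 0.0017). Its arrays were at 8.62, 9.01 and 9.60 at 1 day and at 11.20, 11.39 and 11.51 at 7 days. Col12a1, a related chain found at fibril surfaces of loaded tissue, went from 8.91, 8.75 and 8.85 to 9.69, 10.50 and 11.33. The groups did not overlap, but the arrays at 7 days were spread widely, and the rise of 1.67 (SE 0.49, adjusted p = 0.040) was no longer called when any 1 of 5 of the 6 arrays was left out, with adjusted p up to 0.19, or in the fit on these days alone (adjusted p = 0.053). Col16a1 rose by 0.91 (SE 0.17, adjusted p = 0.0037). The remaining 9 chains of this class lay between -0.00 (Col13a1) and 0.48 (Col8a1), and Col7a1, the chain of anchoring fibrils, was at 0.39 (adjusted p = 0.051).

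Col16a1 and Col5a3 showed the same order of days with smaller steps. Col16a1 was at 6.44, 6.55 and 6.66 in Sham-GA at 1 day and at 7.39, 7.18 and 7.81 at 7 days, and Col5a3 at 7.18, 7.11 and 7.06 and at 8.48, 7.96 and 8.51. Neither overlapped between the days. Col8a1, a short network-forming chain made by vessel cells, was at 8.17, 7.77 and 8.07 and at 8.48, 8.53 and 8.44, which did not overlap either, but its difference did not pass the test (adjusted p = 0.25).

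Of the basement membrane chains, Col4a1 rose by 1.16 (SE 0.23, adjusted p = 0.0059). Its arrays were at 7.43 in all 3 animals at 1 day and at 8.43, 8.49 and 8.85 at 7 days. Col4a3 and Col4a4, chains of a type IV network known best from kidney and lung, were at 0.13 (adjusted p = 0.74) and 0.04 (adjusted p = 0.91), with overlapping arrays. The class medians were 1.54 for the fibrillar, 0.13 for the basement membrane and 0.21 for the other chains, beside -0.03 for all genes tested. The basement membrane class has 3 measured chains, and Col4a1 did not move with the other pair.

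**Figure D1:**
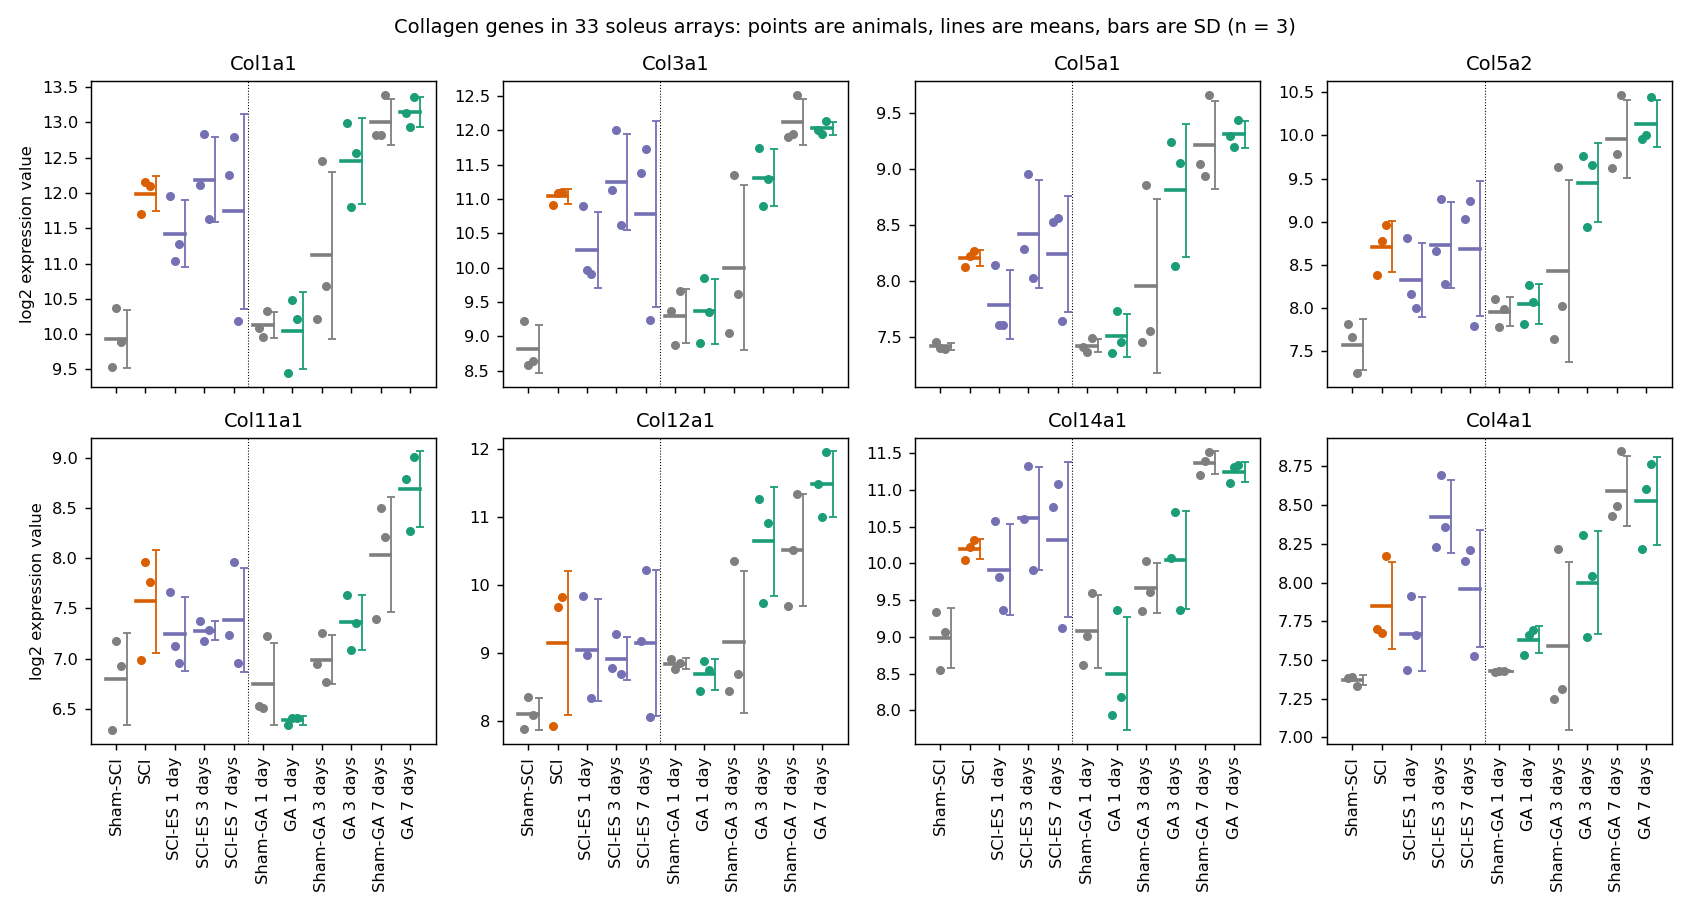
Level of 8 collagen genes (y axis, log2 expression value) in the 11 groups (x axis), with 1 point per animal, a line at the mean and a bar of 1 SD (n = 3), and a dotted line between the experiments. Sham-GA and GA arrays climbed from 1 to 7 days, with Sham-GA 3 days spread from 10.22 to 12.45 for Col1a1, and SCI-ES 7 days spread from 10.18 to 12.79.

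The same days were compared in the animals with the cut. Between GA 1 day and GA 7 days 10 of 25 collagens rose and none fell, against 5.66% of all genes called higher, and for 13 of 25 the arrays at 7 days lay above those at 1 day without overlap, as for 16.7% of all genes. Col1a1 rose by 3.09 (SE 0.45, adjusted p = 0.00049), from 9.44, 10.48 and 10.22 to 13.13, 12.93 and 13.36. Col1a2 rose by 2.79 and Col3a1 by 2.67. Col12a1 rose by 2.80 (SE 0.49, adjusted p = 0.0017), from 8.43, 8.87 and 8.74 to 11.49 and 11.95 in 2 animals and just under 11 in the other, and Col14a1 by 2.75 (SE 0.36, adjusted p = 0.00027). All of these groups were without overlap. Col11a1 rose by 2.30 (SE 0.27, adjusted p = 0.00012), with arrays at 6.33, 6.41 and 6.41 at 1 day and 8.78, 8.27 and 9.00 at 7 days. Col5a2 at 2.09, Col5a1 at 1.79, Col16a1 at 0.92 and Col4a1 at 0.90 were also called. The call of Col4a1 (adjusted p = 0.017) was lost without GA 7 days replicate 2, GA 7 days replicate 3 or GA 1 day replicate 1, with adjusted p up to 0.081. Col5a3 at 0.77 (adjusted p = 0.051) missed the threshold, and Col2a1 at 0.52 (adjusted p = 0.0052) was under the fold minimum. The class medians were 1.94, 0.00 and 0.12, beside -0.05 for all genes.

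Whether the change over days differed between GA and Sham-GA was tested directly, as the GA difference at 7 days minus that at 1 day. No collagen was called by limma, as for 0% of all genes, and 2 of 25 had an unadjusted p under 0.05, against 8.26% of all genes. The highest values were 1.13 for Col12a1 (SE 0.69, adjusted p = 0.71) and 1.02 for Col11a1 (SE 0.38, adjusted p = 0.51). The lowest was -0.43 for Col5a3 (SE 0.35, adjusted p = 0.79). Sham-GA 3 days against Sham-GA 1 day gave no call either, again with 0% of all genes called and 2 of 25 collagens at an unadjusted p under 0.05 (5.43% of all genes), and its largest value was 0.99 for Col1a1 (SE 0.45, adjusted p = 0.89).

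**Figure D2:**
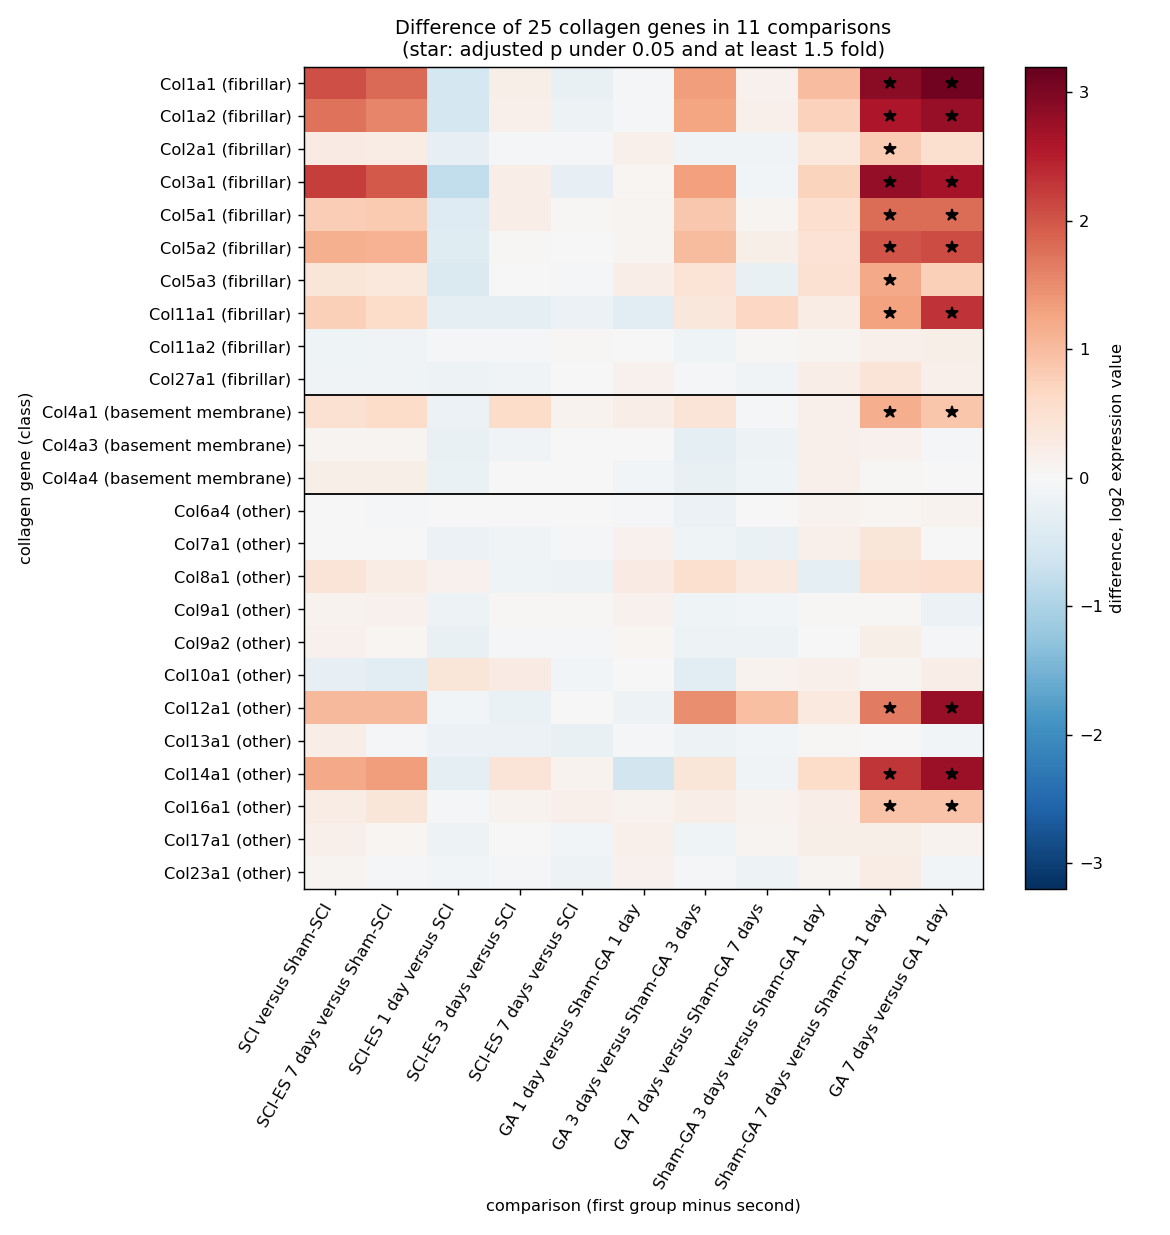
Difference in log2 expression value (colour) of the 25 collagen genes (rows, by class) in 11 comparisons (columns, first group minus second), with a star where adjusted p was under 0.05 and the fold at least 1.5. Stars are found only in the 2 columns of 7 days against 1 day, 12 for Sham-GA and 10 for GA.

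The comparison of SCI with Sham-SCI asked what long-standing transection, with its later operations, left in the muscle. No collagen was called by limma, where 0.401% of all genes were, but 10 of 25 had an unadjusted p under 0.05, against 14.6% of all genes. By the methods' test across groups, 4 collagens passed without adjustment and at least 1.5 fold, as did 2.55% of all genes, and 0 collagens passed after Benjamini-Hochberg adjustment, as 0.00692% of all genes did. For 13 of 25 collagens the 3 SCI arrays lay above the 3 Sham-SCI arrays, as did 9.14% of all genes, and for none did they lie below, as 13.1% of all genes did. Sham-SCI arrays stood at 9.22, 8.58 and 8.64 for Col3a1 and SCI arrays at 10.91, 11.09 and 11.11, a difference of 2.22 (SE 0.53, adjusted p = 0.081) or 4.67-fold. For Col1a1 the arrays were at 9.54, 10.36 and 9.90 against 11.70, 12.16 and 12.10, a difference of 2.06 (SE 0.53, adjusted p = 0.099). In both genes the groups were apart by more than their own range. The standard error came from the fit of all 15 arrays of the first experiment.

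Fitted on the SCI and Sham-SCI arrays alone, 5 collagens passed the threshold, as did 1.07% of all genes: Col3a1 (adjusted p = 0.011), Col1a2 (0.014), Col1a1 (0.015), Col5a1 (0.022) and Col14a1 (0.048). With 1 fit of all 33 arrays, Col3a1 (0.029) and Col1a1 (0.043) passed, beside 0.982% of all genes. Other values were 1.73 for Col1a2 (SE 0.49), 1.22 for Col14a1 (SE 0.47), 1.13 for Col5a2 (SE 0.36), 1.04 for Col12a1 (SE 0.55), 0.79 for Col5a1 (SE 0.25), 0.77 for Col11a1 (SE 0.31) and 0.48 for Col4a1 (SE 0.20). Col5a1 was at 7.46, 7.40 and 7.40 in Sham-SCI and at 8.12, 8.23 and 8.26 in SCI. Its spread was narrow and the groups were well apart. Col5a2 was at 7.82, 7.67 and 7.24 in Sham-SCI and at 8.39, 8.78 and 8.97 in SCI, and Col14a1 at 9.34, 8.54 and 9.07 and at 10.05, 10.23 and 10.32. Both were without overlap, whereas Col11a1, at 6.29, 7.17 and 6.93 and at 6.98, 7.96 and 7.76, overlapped. The SCI arrays for Col12a1 were at 7.91, 9.66 and 9.82, and the lowest of them lay within the Sham-SCI range of 7.87 to 8.34. Col10a1, the network chain of growth plate cartilage, had the lowest value at -0.27 (adjusted p = 0.56). The class medians were 0.78 for the fibrillar, 0.20 for the basement membrane and 0.14 for the other chains, beside -0.02 for all genes.

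Stimulation was compared with SCI, and these comparisons share the 3 SCI arrays with the one above. After 1 day of ES no collagen was called, with 0% of all genes called and 3 of 25 at an unadjusted p under 0.05, against 7.28% of all genes. All 10 fibrillar chains and all 3 basement membrane chains had values below 0, while 49.1% of all genes were above 0, with medians of -0.40 and -0.22. Col3a1 was lowest at -0.78 (SE 0.53, adjusted p = 0.79), with SCI-ES 1 day arrays at 10.89, 9.96 and 9.91, each below the lowest SCI array by a margin that was small in the highest of them. Col5a3 was at -0.46 (SE 0.15, adjusted p = 0.61) and Col2a1 at -0.27 (SE 0.10, adjusted p = 0.64). Soleus after 1 day of ES was taken sooner after the implantation surgery than SCI soleus, and that difference in time cannot be told apart from stimulation.

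After 3 days the fibrillar median was 0.02 and after 7 days -0.04, with 0% of all genes called in either comparison and 1 of 25 collagens at an unadjusted p under 0.05 in each, against 3.07% and 2.84% of all genes. Col4a1 had the highest value at 3 days, 0.58 (SE 0.20, adjusted p = 1.0), with SCI-ES 3 days arrays at 8.23, 8.69 and 8.36 above SCI arrays at 7.70, 7.68 and 8.17. Those groups did not overlap, but the gap was smaller than the range within either. At 7 days values ran from -0.25 (Col1a1 and Col3a1) to 0.16 (Col16a1). SCI-ES 7 days against SCI-ES 1 day ran from -0.47 (Col10a1, adjusted p = 0.37) to 0.53 (Col3a1, adjusted p = 0.71), with none called, 0% of all genes called and 3 of 25 at an unadjusted p under 0.05 (12.1% of all genes). SCI-ES 3 days and SCI, and SCI-ES 7 days and SCI-ES 1 day, also differed in time since the implantation surgery. In these comparisons that time cannot be told apart from stimulation.

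Against Sham-SCI, SCI-ES 7 days had Col3a1 at 1.97 (SE 0.53, adjusted p = 0.10), Col1a1 at 1.81 (SE 0.53, adjusted p = 0.13), Col14a1 at 1.34 and Col5a2 at 1.11, with none called, 10 of 25 at an unadjusted p under 0.05 (14.8% of all genes) and 0.699% of all genes called. These values shared the Sham-SCI arrays with the comparison of SCI, and 1 array decided the calls. SCI-ES 7 days arrays of Col1a1 were at 12.25, 12.79 and 10.18, and replicate 3 was the low one, lying within the Sham-SCI range. Without it 7 collagens were called (Col1a1, Col1a2, Col3a1, Col4a1, Col5a1, Col5a2 and Col14a1), with Col1a1 at 2.59, and 2.5% of all genes were called in that fit. The fibroblast markers averaged 8.70 in that array and up to 9.98 in the others of its group, while muscle fiber markers averaged 12.7 to 12.8 in the 3 arrays. Their part in the collagen values was not tested. In whole muscle a lower value from fewer cells of a type and from less RNA per cell cannot be told apart.

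**Figure D3:**
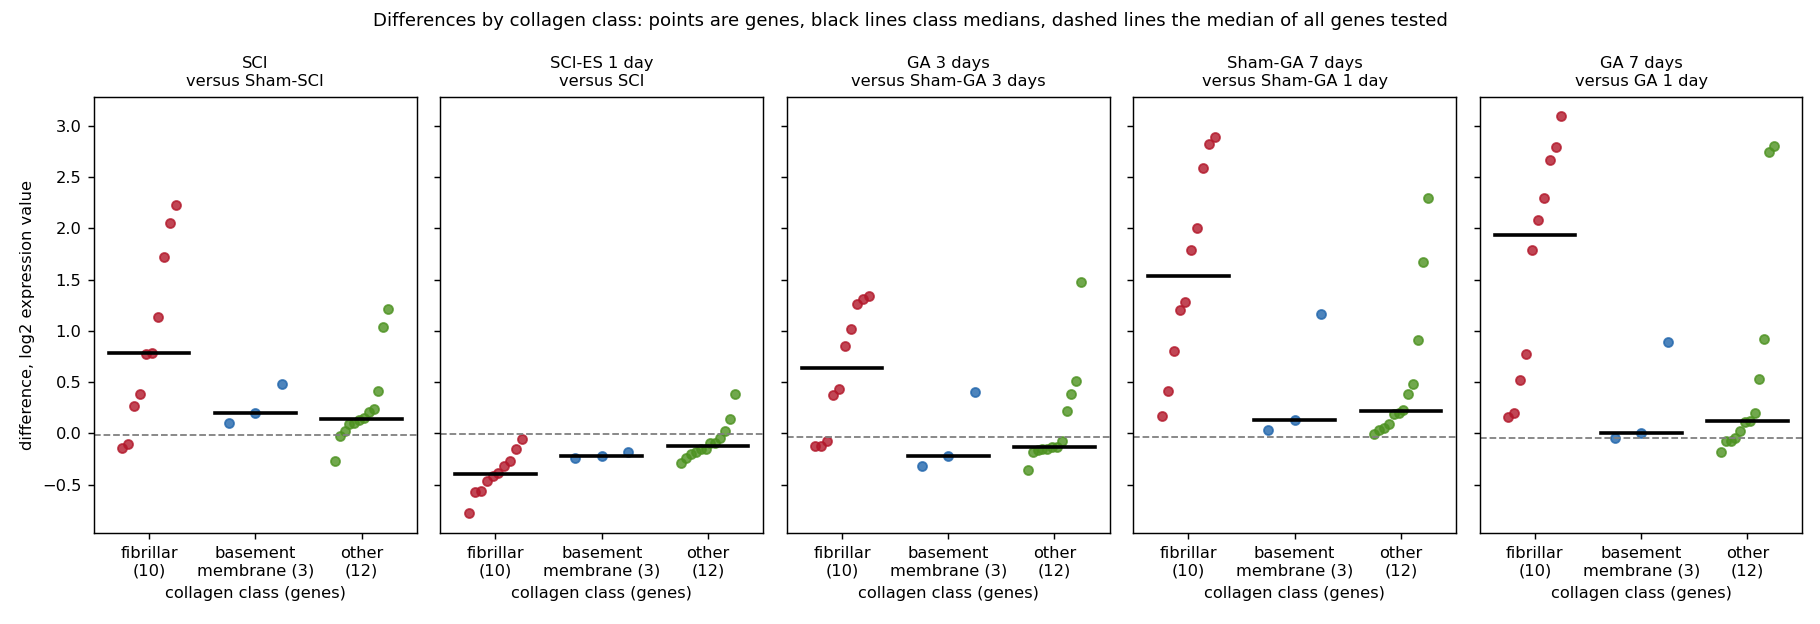
Difference in log2 expression value (y axis) of each collagen gene (points) by class (x axis) in 5 comparisons, with the class median (black line) and the median of all genes tested (dashed line). The fibrillar median was 0.78 for SCI, -0.40 for 1 day of ES and 1.54 and 1.94 for 7 days against 1 day, with basement membrane and other medians nearer to 0 in each. The basement membrane class holds only 3 analysed chains, and Col4a1 among them was called higher in both comparisons of 7 days with 1 day.

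Gastrocnemius ablation was compared with its sham on the same day, on the same arrays as the comparisons between days. At 1 day no collagen was called, with 0.0554% of all genes called and 0 of 25 at an unadjusted p under 0.05 (13.7% of all genes), and values ran from -0.58 for Col14a1 (SE 0.36, adjusted p = 0.51) to 0.27 for Col8a1 (SE 0.25, adjusted p = 0.67). At 3 days the values were larger. Col12a1 was at 1.48 (SE 0.49), Col1a1 at 1.34 (SE 0.45), Col3a1 at 1.31 (SE 0.43), Col1a2 at 1.26 (SE 0.43) and Col5a2 at 1.02 (SE 0.39), each with an adjusted p of 0.29. None was called, as for 0% of all genes, and 7 of 25 had an unadjusted p under 0.05, against 16.5% of all genes.

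Sham-GA 3 days replicate 2 decided that comparison. Its Col1a1 level of 12.45 lay among the GA 3 days arrays at 12.99, 11.80 and 12.56, while the other sham arrays were at 10.22 and 10.68. Without it 9 collagens were called (Col1a1, Col1a2, Col3a1, Col4a1, Col5a1, Col5a2, Col5a3, Col8a1 and Col12a1), with Col12a1 at 2.08 and Col1a1 at 2.00, against 8.9% of all genes called in that fit. In the mean over the 3 days 5 were then called (Col1a1, Col1a2, Col3a1, Col5a2 and Col12a1), against 3.41% of all genes. In that array fibroblast markers averaged 9.80 and macrophage markers 10.1, against lows of 8.57 and 8.68 in the same group. Their part was not tested. The class medians at 3 days were 0.64, -0.23 and -0.13, beside -0.03 for all genes.

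At 7 days GA and Sham-GA were close in type I and III chains, with Col1a1 at 0.13 (SE 0.45) and Col3a1 at -0.09 (SE 0.43). Col12a1 was at 0.97 (SE 0.49) and Col11a1 at 0.65 (SE 0.27), both with an adjusted p of 1.0. The arrays of Col12a1 were at 11.49, just under 11 and 11.95 in GA and at 9.69, 10.50 and 11.33 in Sham-GA, which overlap. None was called, as for 0% of all genes, and 1 of 25 had an unadjusted p under 0.05 (2.63% of all genes). Over the 3 days the mean GA difference was highest for Col12a1 at 0.76 (SE 0.28, adjusted p = 0.20) and Col1a1 and Col1a2 were at 0.46. None was called, as for 0% of all genes, with 2 of 25 at an unadjusted p under 0.05 (19.3% of all genes).

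The response to ES was set against that to GA at the same day, each relative to its own reference. At 1 day the difference was lowest for Col3a1 at -0.84 (SE 0.72, adjusted p = 0.65) and highest for Col10a1 at 0.39 (SE 0.24, adjusted p = 0.50). No collagen was called there, where 0.0554% of all genes were, and 5 of 25 had an unadjusted p under 0.05 (13% of all genes). At 7 days values ran from -0.96 for Col12a1 (SE 0.78) to 0.24 for Col14a1 (SE 0.62), each with an adjusted p of 1.0, with 0% of all genes called and 0 of 25 at an unadjusted p under 0.05 (3.14% of all genes).

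Within groups some collagens shared the highest array of Col1a1 and others did not. The array with the highest Col1a1 in its group was also the highest for Col1a2 in 11 of 11 groups, for Col3a1, Col5a1, Col11a1, Col12a1 and Col16a1 in 9, and for Col5a2, Col8a1 and Col14a1 in 8. It was the highest for Col4a1 in 7 groups. These were 10 of the 24 other chains. The remaining 14 shared it in 0 to 5 groups, from Col10a1 at 0 and Col27a1 at 1 to Col17a1 at 5. The split was less clean for the lowest array of Col1a1. Col4a1 shared that array in 4 groups, Col14a1 in 5 and Col8a1 in 6. Col2a1, one of the remaining chains, shared it in 6. How often other genes share these arrays was not counted, and with 3 arrays a group some sharing arises without any link. These counts describe the same RNA samples and carry no test. Over all 33 arrays Col12a1 spanned 4.08, Col1a1 3.94 and Col3a1 3.93. Col4a1 spanned 1.60, and the flattest chains were Col17a1 at 0.50, Col13a1 at 0.60 and Col6a4 at 0.62.

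The genes that make, trim, bind and break down collagen were read from lists of the pathway. Between 1 and 7 days in Sham-GA, 3 of 17 modifying enzymes and chaperones rose, among them Fkbp10, a chaperone of type I procollagen, by 1.69 (SE 0.49), and P3h3, a prolyl hydroxylase family member, by 1.26 (SE 0.24). Of the processing and crosslinking genes 6 of 11 rose, including Adamts2, which removes the amino propeptide, by 2.23 (SE 0.27), Bmp1, which removes the carboxyl propeptide, by 1.89 (SE 0.24), and Loxl2, a lysyl oxidase relative that starts crosslinks, by 2.17 (SE 0.39). Of the fibril partners 4 of 8 rose, with Lum, a small proteoglycan that limits fibril width, at 2.24 (SE 0.43). None of the members of these lists fell, but the share of all genes called lower is not given here.

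Of the receptors 4 of 9 rose, among them Itga11, an integrin subunit that binds fibrillar collagen, at 1.38 (SE 0.36). Of the degradation list 5 of 10 rose, including Ctsk, a collagen-cleaving cathepsin, by 3.08 (SE 0.46), Mmp14 by 2.89 (SE 0.44) and Mmp2 by 2.18 (SE 0.32), both matrix metalloproteinases, and the inhibitor Timp2 by 1.41 (SE 0.21). The basement membrane partners had 1 of 6 called, Agrn, a proteoglycan of the synapse and fiber surface, at 0.61 (SE 0.13). In GA the same lists had 10 of 17, 7 of 11, 6 of 8, 6 of 9, 6 of 10 and 3 of 6 genes called higher. Of all genes, 5.66% were called higher in GA and 3.46% in Sham-GA. In GA Ddr1, a collagen receptor of epithelium, fell by 0.77 (SE 0.19). Mmp13, a collagenase, rose by 3.41 (SE 0.81) there.

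In SCI against Sham-SCI none of the pathway genes was called. The medians were 1.17 for degradation, 1.13 for fibril partners, 1.05 for processing and crosslinking, 0.53 for basement membrane partners, 0.27 for modifying enzymes and 0.22 for receptors. Ctsk had the highest value of all at 2.45 (SE 0.58, adjusted p = 0.080) and the lysyl oxidase Lox was at 1.79 (SE 0.59, adjusted p = 0.18). Mmp14 was the 1 gene of these lists called in SCI-ES 7 days against Sham-SCI, and none was called in any other comparison of groups or of effects except 7 days against 1 day.

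Markers of fibroblasts, macrophages, and pericytes and smooth muscle had calls in both comparisons between days, and the other lists had calls in GA alone or in neither. Fibroblast markers rose in 7 of 9 genes between 1 and 7 days in Sham-GA and in 7 of 9 in GA, with Thy1 at 3.71 (SE 0.62) and 3.86 (SE 0.62). Their mean level per array ran from 8.63 to 8.94 at 1 day and from 10.2 to 10.6 at 7 days in Sham-GA, and from 8.32 to 8.91 and from 10.1 to 10.3 in GA. In SCI it ran from 9.20 to 9.70, against 8.11 to 8.68 in Sham-SCI. The dimmest fibroblast marker was Tcf21 at 5.09, and Dpt and Lum stand in this list and among the fibril partners. Their part in the collagen differences was not tested.

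Of 4 tenocyte markers 3 rose in GA (Tnmd, a tendon membrane protein, by 3.80, SE 0.67) and 0 in Sham-GA, and macrophage markers had 4 of 8 higher with Cd163 lower in GA and 3 of 8 higher in Sham-GA. Pericyte and smooth muscle markers had 3 of 8 higher in Sham-GA and 4 of 8 in GA, and Schwann cell markers 0 and 2 of 4. Endothelial markers had 0 and 1 of 7 called, cartilage markers 0 and 1 of 3, adipocyte markers 0 of 4 in both, and neutrophil markers 0 of 5 in Sham-GA and 2 of 5 lower in GA. Muscle fiber markers had 0 of 8 called in both, with medians of -0.06 and -0.11. Beside these counts, 3.46% of all genes were called higher in Sham-GA and 5.66% in GA, while the shares called lower are not given here. The direct test of whether the change over days differed between GA and Sham-GA called 0% of all genes. The counts of marker and pathway genes therefore do not show a difference between GA and Sham-GA. In SCI against Sham-SCI the fibroblast median was 0.92 and the macrophage median 0.64, with no marker called. The muscle fiber markers, with a median of -0.57, were split. The slow fiber genes Myh7, Tnnt1, Tnni1 and Tnnc1 were at -0.96, -1.05, -0.86 and -1.15, while Ckm, Acta1 and Ttn, shared by fast and slow fibers, were at 0.01, -0.03 and 0.01 and Actn2 at -0.28.

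**Figure D4:**
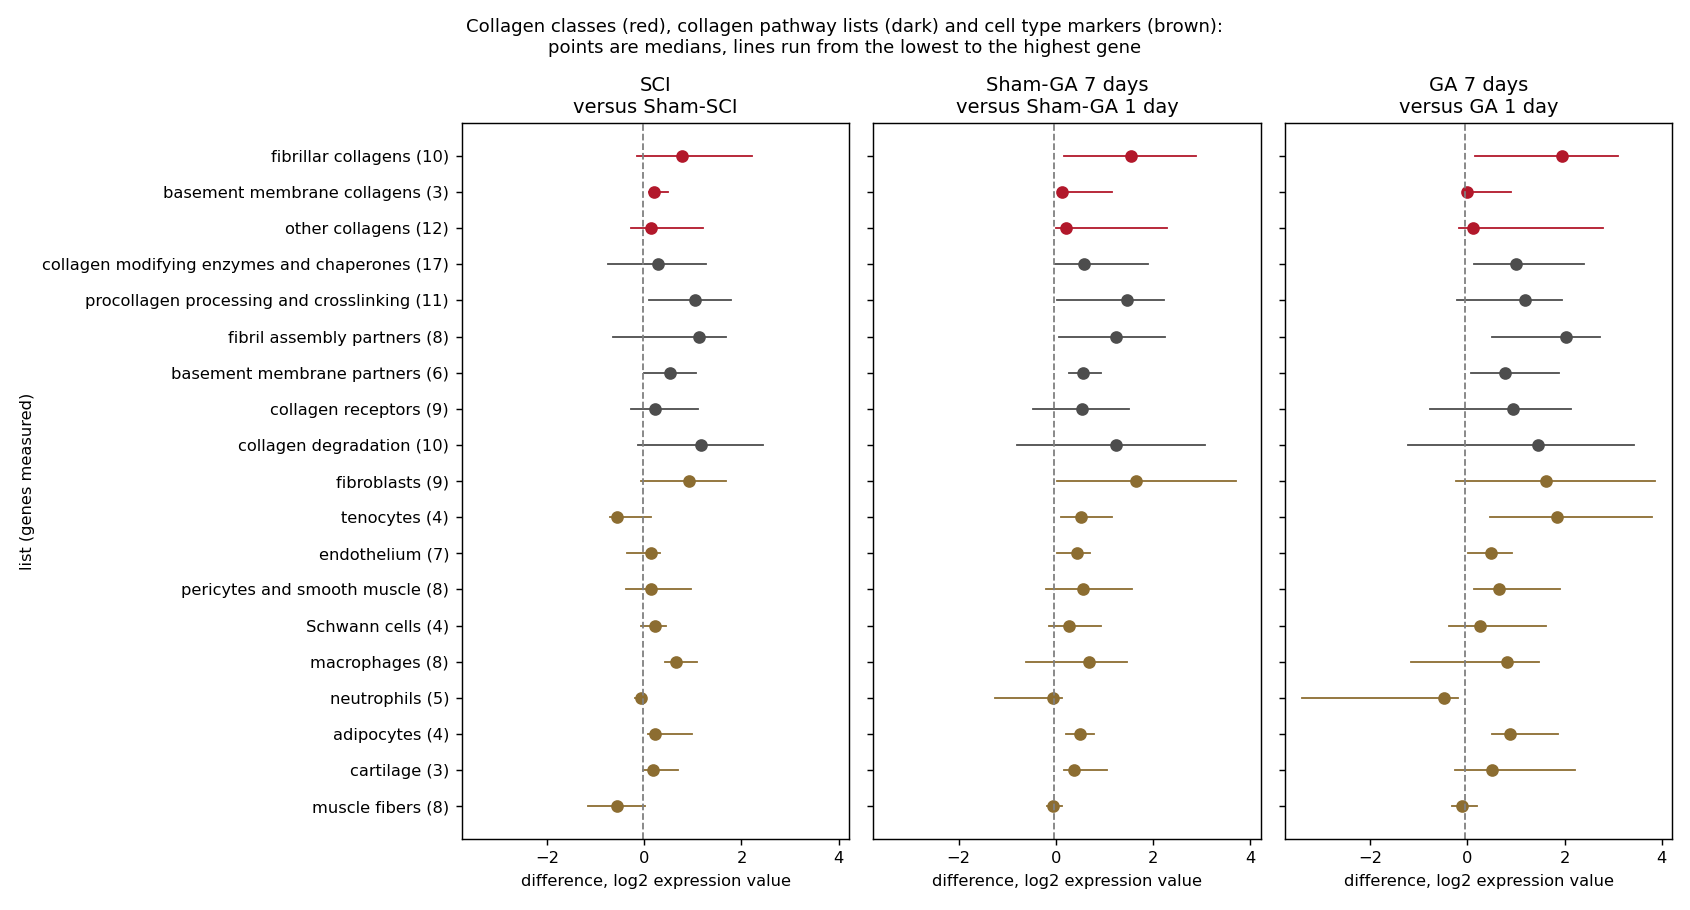
Median difference in log2 expression value (points, x axis) and the lowest to highest gene (lines) of the collagen classes, the collagen pathway lists and the cell type markers (y axis, genes measured in brackets) in 3 comparisons, with the median of all genes tested as a dashed line. Fibrillar collagens were at 0.78, 1.54 and 1.94 and fibroblast markers at 0.92, 1.66 and 1.62. In SCI against Sham-SCI the degradation, fibril partner, processing and macrophage medians also lay above that of all genes. The fibroblast list is thus not singled out.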

How the data were processed

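Soleus RNA from 33 animals was hybridised to 33 Affymetrix rat arrays, and groups and days were taken from the sample titles (3 days of ES, where the series text gives 2). The authors deposited log2 expression values, made per the study's methods and the submitters' processing notes with RMA in the oligo package (baseline subtraction, quantile normalization and median polish), in versions not given in the sources used here. Of 29214 rows, 15310 had 1 gene symbol in the annotation of the platform. The brightest row per gene was kept. A gene entered the fit where its average value was 3 or more, and was tested with limma 3.58.1 in R 4.3.3 with a group-means model: 15 arrays for the first experiment (14456 genes), 18 for the second (14451) and 33 for differences between experiments (14453). P-values were adjusted by the Benjamini-Hochberg method over all genes tested. Named genes were every member called, the ends of the range in a comparison, the chains of types I, III, IV, V, XI, XII and XIV, and called genes or range ends of the pathway and marker lists. The members and lists were chosen with earlier results of these data known. The fits were tested on simulated data. Array number and probe brightness limit precision, and depth does not apply.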

Additional observations from a re-analysis of the deposited data

How the results depend on the processing

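The counts of called collagens and the class medians were recomputed under 13 alternatives and without each array in turn, and no called difference of a single collagen turned its sign. SCI against Sham-SCI gave 5 collagens with the groups compared alone, 2 in 1 fit of all 33 arrays and 4 by the methods' test across groups without adjustment. By that test 1 collagen passed for SCI-ES 1 day, 5 for SCI-ES 7 days against Sham-SCI, and 1 each for GA 3 days, GA 7 days and the mean GA difference, beside 0.809%, 2.67%, 4.37%, 1.02% and 1.99% of all genes. The fit of all arrays gave 1 for SCI-ES 7 days against Sham-SCI, beside 1.29% of all genes. Leaving out 1 array gave 0 to 7 calls for SCI-ES 7 days against Sham-SCI (7 without SCI-ES 7 days replicate 3), 0 to 9 for GA 3 days and 0 to 5 for the mean GA difference (9 and 5 without Sham-GA 3 days replicate 2). The calls between days stayed at 10 to 12 in Sham-GA and at 9 to 11 in GA. With the groups compared alone Sham-GA gave 10, without Col11a1 and Col12a1, beside 4.01% of all genes called in either direction. Shares of all genes in the other settings of these 2 comparisons are not given here.

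The methods' filters, which keep the more variable genes, left 16 members, 5 of them in the class of other chains, whose median was then 0.41 for SCI, 0.12 for SCI-ES 3 days, 0.40 for SCI-ES 7 days against Sham-SCI, 0.38 for GA 3 days, 0.12 for GA 7 days, 0.15 for the mean GA difference, 0.11 for the GA difference at 7 days minus 1 day, 0.061 and -0.19 for ES minus GA at 1 and 7 days, and 0.91 and 0.92 for 7 days against 1 day in Sham-GA and GA. The fibrillar median of Sham-GA was then 1.89. Fewer members entered these medians. Centering each array moved the median of all genes by -0.13 in GA 7 days against 1 day and by -0.10 in GA 3 days, and put the basement membrane and other medians of the former at -0.13 and -0.014.

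Without 1 array, the basement membrane median ran from -0.30 to -0.065 for SCI-ES 1 day, from 0.083 to 0.35 for SCI-ES 7 days against 1 day, from -0.13 to 0.18 for GA 1 day, from -0.37 to -0.13 for GA 3 days, from -0.27 to -0.000302 for the GA difference at 7 days minus 1 day, from -0.39 to -0.095 for ES minus GA at 1 day, from 0.0012 to 0.30 for Sham-GA 7 days and from 0.081 to 0.32 for Sham-GA 3 days against Sham-GA 1 day. The fibrillar median ran from 0.46 to 1.02 for GA 3 days, from -0.34 to 0.22 for ES minus GA at 7 days and from 0.14 to 0.71 for Sham-GA 3 days, and the median of other chains from -0.15 to 0.025 for the GA difference at 7 days minus 1 day. The causes were not tested.

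In no comparison was the correlation of same-numbered animals over 0.1 in every pair (correlations from -0.72 to 0.61), so the numbers were not taken as pairs. With the replicate number as a block, Sham-GA 7 days against 1 day gave 11 calls (Col12a1 was lost) and GA 10, with 0 in every other comparison. Shares of all genes with the block are not given here. With 3 animals a group, differences under the spread between animals were not detectable, and the labels do not say whether arrays were run in batches.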
